A study of Chlamydomonas reinhardtii with 12 samples.

Results

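Of the 17741 gene loci in the table of the green alga Chlamydomonas reinhardtii, 6 encode the enzymes that ferment pyruvate to formate, acetate and ethanol. They were taken by gene symbol: PFL1 (pyruvate-formate lyase), PAT1 and PAT2 (phosphate acetyltransferases), ACK1 and ACK2 (acetate kinases) and ADH1 (a dual-function alcohol and acetaldehyde dehydrogenase). All 6 reached at least 1 FPKM in at least 1 group, as did 10915 loci in all. FPKM divides the fragments of a transcript by its length and by the size of the library, so levels can be compared between genes.

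Pyruvate-formate lyase cleaves pyruvate with coenzyme A into formate and acetyl-CoA without using oxygen, and its active form carries a radical that oxygen destroys. Phosphate acetyltransferase passes the acetyl group to phosphate, and acetate kinase uses that acetyl phosphate to make ATP and release acetate. ADH1 instead reduces acetyl-CoA through acetaldehyde to ethanol, which consumes NADH. In this alga PAT2 and ACK1 are known as the chloroplast pair and PAT1 and ACK2 as the mitochondrial pair. Chlamydomonas uses these reactions when starch is broken down in the dark without air.

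The 12 poly(A) RNA libraries came from 2 strains in 3 incubations, with 2 biological replicates in each of the 6 groups. The strains were the wild type CC-124 and amiCYG12, a transformant in the CC-124 background whose guanylate cyclase gene CYG12 is knocked down by an artificial microRNA. The standard cultures were aerated and lit (20 µmol photons per m2 and s) in TAP medium, which contains acetate. The others then spent 6 h in darkness, with air in stirred open beakers (called dark aerated here) or closed off from air in gas-tight flasks (called anoxia). The knockdown line is 1 transformant, and the darkened cultures were also harvested 6 h later than the standard ones.

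The table gives 1 pooled FPKM per group of 2 libraries, so neither the value of each replicate nor its spread can be shown, and the depth of each library is unknown. Calls and q-values (p-values adjusted for many tests, called below 0.05) are those of the authors' deposited table. Each standard error (SE) was recovered from a log2 ratio and its deposited p-value, and it stands for the authors' model error. In a culture, less RNA of a gene per cell and fewer cells that express it cannot be told apart.

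The labels were checked on marker genes. CYG12 stood at 0.132 FPKM in the wild type under standard conditions, 3.23 dark aerated and 2.46 in anoxia. In amiCYG12 its levels were 0.158, 0.353 and 0.429 FPKM in the same order. The strains could therefore be told apart by CYG12 in the dark, and not under standard conditions, where the wild type was also near 0. FDX5, a ferredoxin gene known for induction in anoxia, stood between 2.57 and 3.74 FPKM in the 4 aerated groups, at 2691 in wild-type anoxia and at 1684 in amiCYG12 anoxia. All 9 measured genes of photosynthesis and tubulin, including RBCS2 and PSAD, exceeded 70 FPKM in every group.

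PFL1 (Cre01.g044800, chromosome 1, positions 6257324 to 6267945 of genome version 5.5), the entry enzyme, was the most abundant of the 6 in every group. Its level in the wild type was 105 FPKM under standard conditions, 153 dark aerated and 363 in anoxia. In amiCYG12 it was 118 FPKM under standard conditions, 76.8 dark aerated and 253 in anoxia. The anoxic groups were the highest in both strains, and the darkened, aerated knockdown was the lowest, 4.72-fold below wild-type anoxia. Among the loci that reached 1 FPKM, PFL1 lay between the 95.3th and the 98.3th percentile.

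ADH1 (Cre17.g746997, chromosome 17, 7068687 to 7076475), the ethanol-forming enzyme, came next. It stood at 25.0, 29.8 and 19.8 FPKM in wild-type standard, dark aerated and anoxic cultures. The amiCYG12 levels were 26.6, 13.5 and 11.1 FPKM in that order. ADH1 was thus highest in the darkened, aerated wild type and lowest in the anoxic knockdown, with a 2.68-fold range.

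The acetate-forming genes were all below 9 FPKM. PAT2 (Cre09.g396650, chromosome 9, 1728553 to 1739846) stood at 8.41, 7.45 and 4.53 FPKM in the wild type and at 7.06, 3.53 and 2.70 in amiCYG12, listed from standard through dark aerated to anoxia. It was lowest in anoxia in both strains. ACK1 (Cre09.g396700, chromosome 9, 1723585 to 1728328) stood at 3.18, 4.57 and 6.13 FPKM in the wild type and at 2.62, 1.82 and 3.97 in amiCYG12. It was highest in anoxia in both strains, where its chloroplast partner PAT2 was lowest.

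PAT1 (Cre17.g699000, chromosome 17, 441728 to 453059) stood at 2.80, 2.01 and 6.47 FPKM in the wild type and at 2.07, 1.82 and 2.98 in amiCYG12. The wild-type anoxic group stood apart from the other 5. ACK2 (Cre17.g709850, chromosome 17, 1839904 to 1846335) stood at 4.63, 5.52 and 5.01 FPKM in the wild type and at 5.11, 4.77 and 5.31 in amiCYG12. Its highest group was 1.19-fold above its lowest, the narrowest range of the 6, and no comparison called it.

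**Figure D1:**
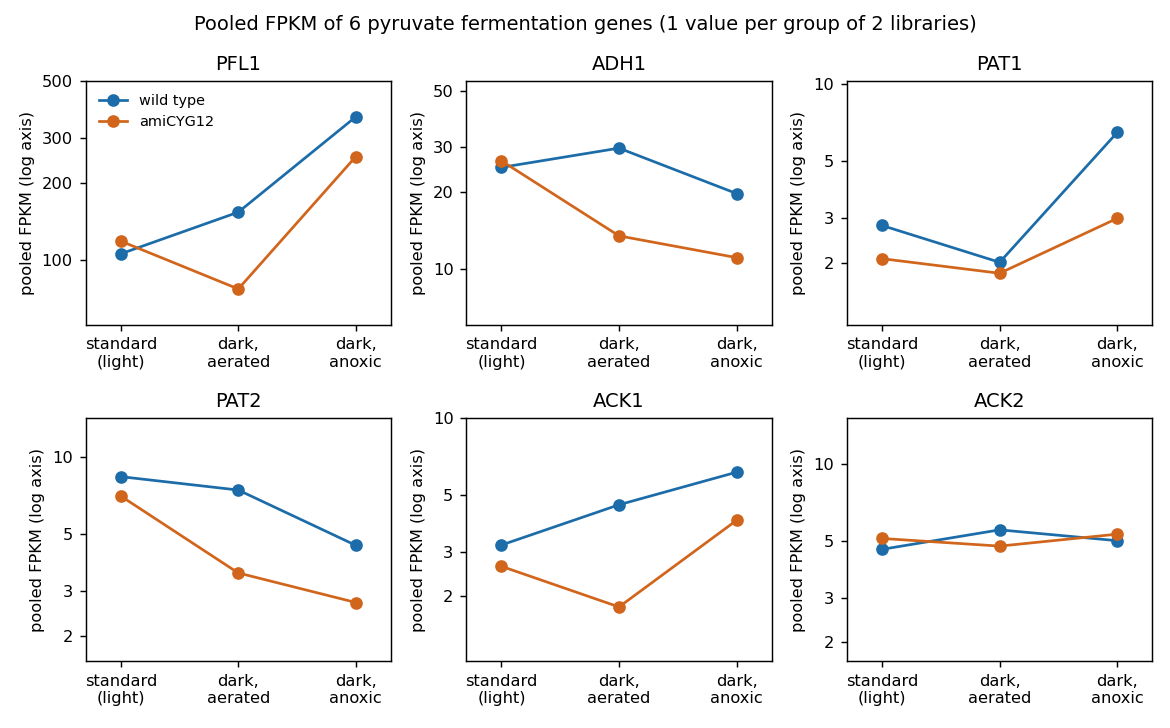
Pooled FPKM (vertical log axes, 1 panel per gene) of the 6 fermentation genes in standard, dark aerated and anoxic cultures of the wild type and amiCYG12. Each point is 1 group of 2 libraries and has no error bar because only 1 pooled value per group is given. PFL1 peaks in anoxia at 363 and 253 FPKM, PAT2 is lowest there, and ACK2 stays between 4.63 and 5.52 FPKM.

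The first question was what 6 h of darkness with air does to these genes. In the wild type none of the 6 was called, against 11 percent of the 10607 loci tested (4.28 percent higher, 6.75 percent lower), and none had an unadjusted p below 0.05 in the authors' deposited table, the smallest being 0.112. PFL1 had a log2 ratio of 0.54 (SE 0.34, 95% interval -0.13 to 1.21) and ACK1 one of 0.52 (SE 0.36, interval -0.18 to 1.23). The median log2 ratio of the 6 genes was 0.25, beside -0.07 over all loci tested.

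In amiCYG12 the same step lowered PAT2 and ADH1. PAT2 fell by 1.00 on the log2 scale (SE 0.36), to 3.53 from 7.06 FPKM, with q = 0.0257 in the authors' deposited table. ADH1 fell by 0.98 (SE 0.36), to 13.5 from 26.6 FPKM, with q = 0.0321 in the authors' deposited table. These were 2 of 6 genes, against 13.9 percent of 10619 loci (4.13 percent higher, 9.78 percent lower). PFL1 had a log2 ratio of -0.62 (interval -1.29 to 0.05) and ACK1 one of -0.53 (interval -1.30 to 0.25), neither called. The median of the 6 was -0.58, beside -0.10 over all loci.

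Both amiCYG12 calls were near the threshold. With all groups scaled to a common median ratio the q-values became 0.0825 for PAT2 and 0.0972 for ADH1, and with adjustment within the comparison alone they became 0.0457 and 0.0559. The common offset that this scaling takes out was -0.10 in this comparison, -0.11 in wild-type anoxia against standard and -0.10 in amiCYG12 anoxia against standard. Relative to that offset, PAT2 was at -0.90, ADH1 at -0.87 and PFL1 at -0.52, and ACK2 moved from -0.10 to 0.0024.

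The second question was what darkness together with loss of oxygen does, measured from the standard culture. In the wild type PFL1, PAT1 and ACK1 rose and PAT2 fell, 4 of 6 genes against 27.4 percent of 10739 loci called either way. Higher calls made up 11.5 percent of loci and lower calls 15.9 percent. PFL1 rose 3.44-fold (log2 1.78, SE at most 0.44), with q = 0.000623 in the authors' deposited table. PAT1 rose 2.31-fold (log2 1.21, SE 0.39), with q = 0.0131 in the authors' deposited table.

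ACK1 rose 1.93-fold (log2 0.95, SE 0.36), and PAT2, encoded beside it, fell 1.86-fold (log2 -0.89, SE 0.35). Their q-values in the authors' deposited table were 0.0414 and 0.0482. The PAT2 call was lost on scaling to a common median ratio (q = 0.0781). ADH1 had a log2 ratio of -0.34 (interval -1.03 to 0.35) and ACK2 one of 0.11 (interval -0.58 to 0.81), so for neither was a change detected. Relative to the offset of all loci, the called values were 1.89 for PFL1, 1.32 for PAT1, 1.06 for ACK1 and -0.79 for PAT2.

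In amiCYG12, dark anoxia raised PFL1 and lowered PAT2 and ADH1, 3 of 6 genes against 24.9 percent of 10739 loci (9.27 percent higher, 15.7 percent lower). PFL1 rose 2.14-fold (log2 1.10, SE 0.35), with q = 0.0102 in the authors' deposited table. PAT2 fell 2.61-fold (log2 -1.38, SE 0.37, q = 0.00203) and ADH1 fell 2.39-fold (log2 -1.26, SE 0.37, q = 0.00496) in the authors' deposited table. The rises of ACK1 and PAT1 seen in the wild type had values of 0.60 (interval -0.15 to 1.34) and 0.52 (interval -0.56 to 1.61) here and were not called. Relative to the offset of all loci, PFL1 was at 1.20, PAT2 at -1.28 and ADH1 at -1.16. The median of the 6 genes was 0.53 in the wild type and 0.29 in amiCYG12, beside -0.09 and -0.11 over all loci.

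The third question was what loss of oxygen adds to darkness, from anoxia against the dark aerated culture. PFL1 rose in the wild type by 2.36-fold (log2 1.24, SE 0.36), with q = 0.00528 in the authors' deposited table. It was the 1 gene of 6 called there, against 14.8 percent of 10697 loci (6.88 percent higher, 7.96 percent lower). ADH1 had a log2 ratio of -0.59 (interval -1.26 to 0.08) and PAT2 one of -0.72 (interval -1.40 to -0.04), with q-values of 0.215 and 0.118 in the authors' deposited table.

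PFL1 and ACK1 rose in amiCYG12, 2 of 6 genes against 25.8 percent of 10768 loci (12.9 percent higher, 12.9 percent lower). PFL1 rose 3.30-fold (log2 1.72, SE at most 0.42) and ACK1 rose 2.18-fold (log2 1.13, SE 0.38). The q-values in the authors' deposited table were 0.000623 and 0.0185. These rises started from the lowest level that each gene had in any group. The median log2 ratio of the 6 was 0.14 in the wild type and 0.43 in amiCYG12, beside -0.02 and -0.03 over all loci.

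PAT1 is the 1 gene of the 6 with more than 1 annotated transcript. Its wild-type log2 ratio of anoxia against dark aerated was 1.69, yet with an SE of 1.14 and q = 0.301 in the authors' deposited table it was not called. The second transcript stood at 1.40 FPKM in the darkened, aerated wild type and at 0.853 in wild-type anoxia, but at 0.00342 under standard conditions. In amiCYG12 it stood at 0.735 FPKM under standard conditions, 0.00638 dark aerated and 0.00895 in anoxia. With both transcripts summed, PAT1 stood at 2.80, 3.40 and 7.32 FPKM in the wild type and at 2.81, 1.82 and 2.99 in amiCYG12. The sum placed wild-type anoxia 1.10 above dark aerated on the log2 scale, with no test, and it turned the wild-type value of dark aerated against standard from -0.48 to 0.28.

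**Figure D2:**
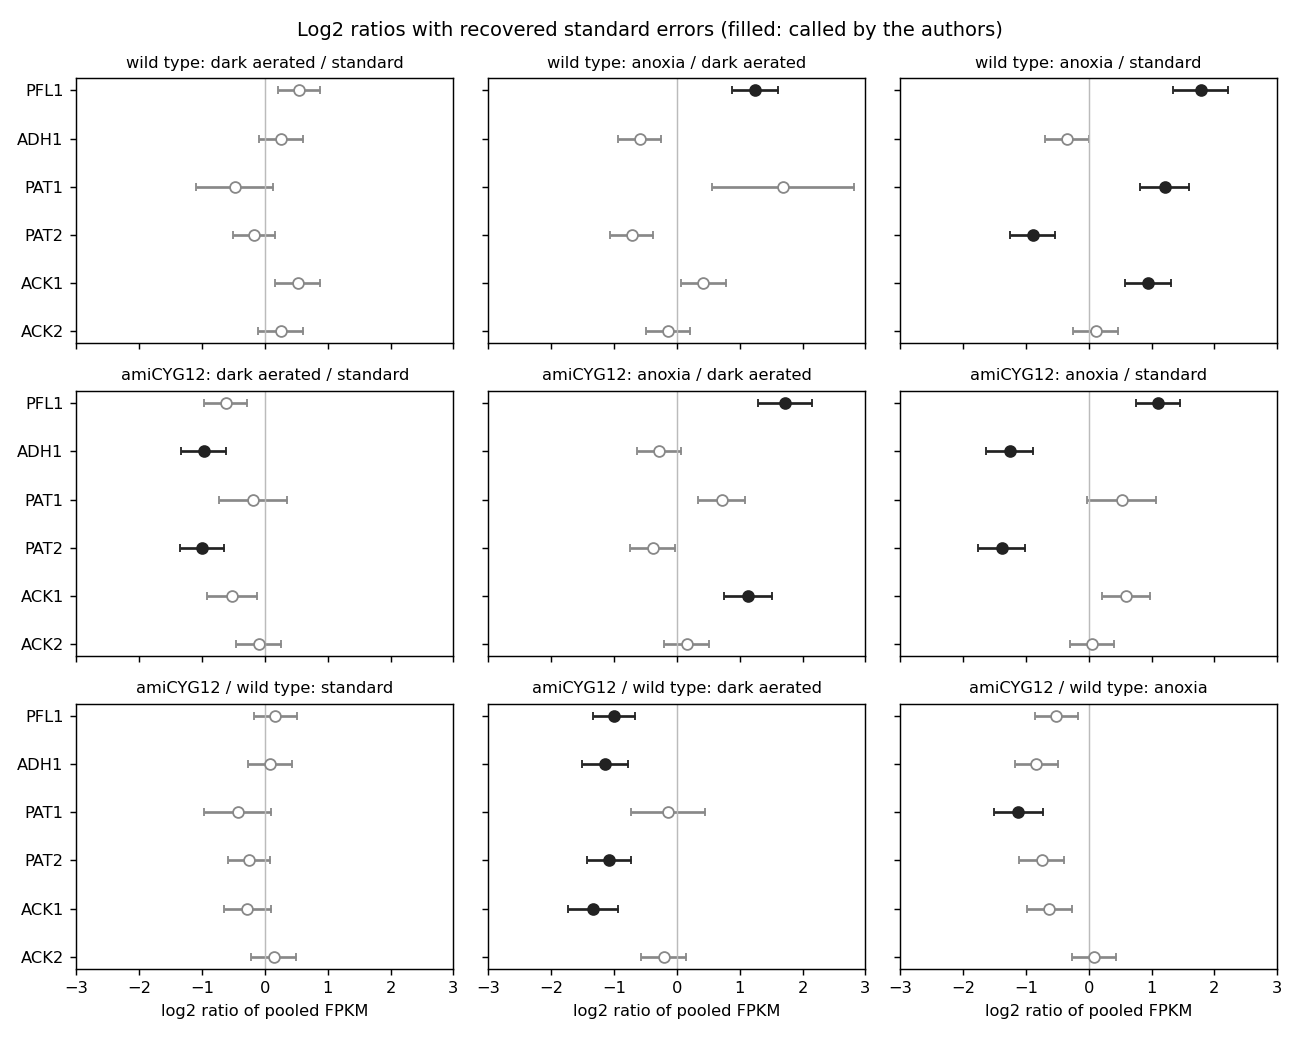
Log2 ratios of pooled FPKM (horizontal axes) for the 6 genes in the 9 comparisons; bars are recovered standard errors, and filled points were called in the authors' deposited table. PFL1 is called higher in all 4 comparisons of anoxia with an aerated culture, and the 4 filled points of amiCYG12 against wild type in the dark aerated cultures all lie to the left of 0.

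The strains were then compared within each incubation. Under standard conditions none of the 6 genes was called, against 10.5 percent of 10548 loci (5.49 percent higher, 5.04 percent lower), and none had an unadjusted p below 0.05 in the authors' deposited table, the smallest being 0.417. The log2 ratios of amiCYG12 to wild type ran from -0.43 for PAT1 to 0.17 for PFL1. PFL1 and ADH1 had intervals of -0.50 to 0.83 and -0.60 to 0.77.

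In the dark aerated cultures PFL1, PAT2, ACK1 and ADH1 were lower in amiCYG12, 4 of 6 genes against 19 percent of 10758 loci (8.2 percent higher, 10.8 percent lower). ACK1 was 2.51-fold lower (log2 -1.33, SE 0.40), with q = 0.00623 in the authors' deposited table. ADH1 was 2.21-fold lower (log2 -1.14, SE 0.36), with q = 0.0115 in the authors' deposited table. PAT2 was 2.11-fold lower (log2 -1.08, SE 0.35, q = 0.0143) and PFL1 was 2.00-fold lower (log2 -1.00, SE 0.34, q = 0.0185) in the authors' deposited table.

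These strain calls covered the entry enzyme, the chloroplast acetate pair and the ethanol branch. The mitochondrial pair was not called: ACK2 had a log2 ratio of -0.21 (interval -0.91 to 0.49) and PAT1 one of -0.14 (interval -1.30 to 1.01), or -0.90 from its summed transcripts. The median of the 6 was -1.04, beside -0.08 over all loci.

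Under anoxia 1 of the 6 genes, PAT1, was lower in amiCYG12, against 14.9 percent of 10669 loci (5.73 percent higher, 9.13 percent lower). PAT1 was 2.17-fold lower (log2 -1.12, SE 0.40), with q = 0.0249 in the authors' deposited table. ADH1 had a log2 ratio of -0.83 (interval -1.51 to -0.16) and PAT2 one of -0.74 (interval -1.45 to -0.04), with q-values of 0.0603 and 0.120 in the authors' deposited table. ACK1 was at -0.63 (interval -1.32 to 0.07), PFL1 at -0.52 (interval -1.19 to 0.16) and ACK2 at 0.08. The median of the 6 was -0.69, beside -0.06 over all loci.

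Ordered by level, PFL1 ran from wild-type anoxia through amiCYG12 anoxia, wild-type dark aerated, amiCYG12 standard and wild-type standard to amiCYG12 dark aerated. Of those neighbours, the anoxic groups of the strains (q = 0.295) and their standard groups (q = 0.776) were compared in the authors' deposited table and not called. For ADH1 the order was wild-type dark aerated, amiCYG12 standard, wild-type standard, wild-type anoxia, amiCYG12 dark aerated and amiCYG12 anoxia. The neighbouring pairs of ADH1 with a test were the standard groups (q = 0.896), wild-type standard and anoxia (q = 0.529), and amiCYG12 dark aerated and anoxia (q = 0.618), none called in the authors' deposited table.

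Whether the strains differ in how they respond is a separate question from whether 1 strain passes the threshold. It was tested by the difference of the log2 ratios of both strains over its recovered error (two-sided normal test, Benjamini-Hochberg adjustment over all loci tested, giving a q of its own). Either the pair of responses or the pair of strain comparisons gives that error, and the smaller was used for each gene. For the response to darkness with air, none of the 6 genes was called, against 2.24 percent of 10242 loci. ADH1 responded lower in amiCYG12 by -1.23 (interval -2.21 to -0.25, q = 0.212), PFL1 by -1.16 (interval -2.10 to -0.23, q = 0.216) and ACK1 by -1.05 (interval -2.10 to -0.01, q = 0.373). Those 3 had an unadjusted p below 0.05, as did 13.2 percent of all loci. With the error from the strain comparisons alone, the interval of ACK1 ran from -2.13 to 0.02, and 2 of the 6 genes, PFL1 and ADH1, had an unadjusted p below 0.05, beside 12.9 percent of all loci.

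PAT2 differed by -0.83 (interval -1.79 to 0.14), ACK2 by -0.35 and PAT1 by 0.29 in the same response. The smallest difference called at any locus was 1.65, larger than any of the 6. For anoxia against dark aerated none of the 6 was called and none had an unadjusted p below 0.05, against 0.725 percent called of 10339 loci. PFL1 was at 0.48 (interval -0.46 to 1.43) and ACK1 at 0.70 (interval -0.32 to 1.73). For anoxia against standard again none was called or had an unadjusted p below 0.05, against 0.577 percent called of 10218 loci, with ADH1 at -0.92 (interval -1.88 to 0.04).

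**Figure D3:**
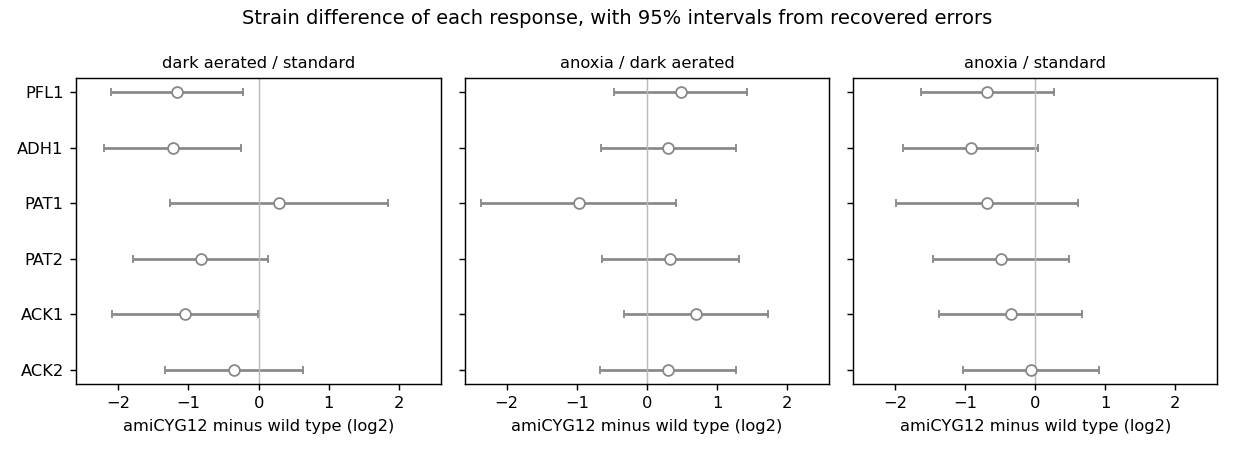
Response in amiCYG12 minus response in the wild type (log2, horizontal axes) for the 6 genes and 3 responses, with 95% intervals from the smaller of 2 recovered errors. In the response to darkness with air the intervals of PFL1 and ADH1 lie below 0, that of ACK1 does so with the smaller error alone (upper end -0.01), and no gene passed the adjusted threshold.

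Ratios within a group show how the genes moved against each other. PFL1 exceeded ADH1 4.21-fold, 5.15-fold and 18.3-fold in the wild type under standard, dark aerated and anoxic conditions. The ratios in amiCYG12 were 4.45, 5.69 and 22.8. From standard to anoxia PFL1 gained on ADH1 by 2.12 on the log2 scale in the wild type (SE 0.56, interval 1.02 to 3.22) and by 2.36 in amiCYG12 (SE 0.50, interval 1.37 to 3.35). From standard to dark aerated the gain was 0.29 in the wild type (interval -0.66 to 1.25) and 0.35 in amiCYG12 (interval -0.62 to 1.33).

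The pooled levels of the chloroplast pair changed order in anoxia, and the order within a group was not tested. PAT2 exceeded ACK1 2.64-fold under standard conditions and 1.63-fold dark aerated in the wild type, and stood at 0.738 of the ACK1 level in anoxia. In amiCYG12 the ratios were 2.69, 1.94 and 0.680. ACK1 gained on PAT2 from standard to anoxia by 1.84 in the wild type (SE 0.51, interval 0.85 to 2.83) and by 1.98 in amiCYG12 (SE 0.53, interval 0.94 to 3.03). These intervals take the errors of both genes as independent, which was not tested. Between the phosphate acetyltransferases, PAT1 stood at 0.333 of PAT2 under standard conditions and at 1.43 in anoxia in the wild type, and at 0.294 and 1.10 in amiCYG12.

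**Figure D4:**
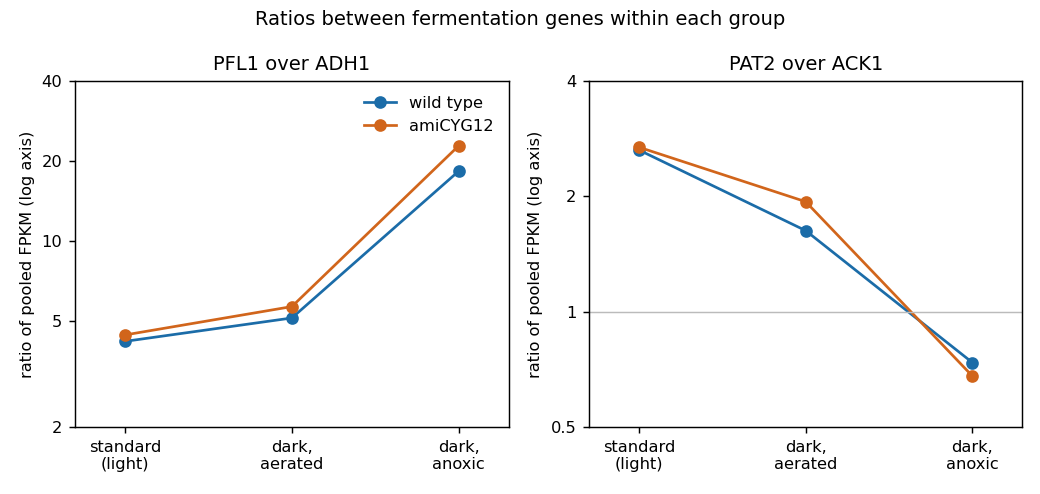
Ratios of pooled FPKM between fermentation genes (vertical log axes) in the 3 incubations of both strains, 1 point per group. PFL1 over ADH1 reaches 18.3 and 22.8 in anoxia, and PAT2 over ACK1 drops there to 0.738 and 0.680.

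The position of the chloroplast pair sets it beside the hydrogenase gene HYDA2. ACK1 and PAT2 are direct neighbours on chromosome 9 with 224 bp between their annotated spans, and HYDA2 (Cre09.g396600, 1740957 to 1745328) begins 1110 bp beyond PAT2. HYDA2 stood at 6.15, 22.6 and 41.3 FPKM in wild-type standard, dark aerated and anoxic cultures, and at 4.73, 2.85 and 12.5 in amiCYG12. It rose 3.68-fold in the darkened, aerated wild type, where neither PAT2 nor ACK1 was called, with q = 0.000623 in the authors' deposited table. In wild-type anoxia against standard HYDA2 (6.73-fold) and ACK1 rose while PAT2, between them, fell. All 3 were lower in the darkened, aerated knockdown than in the wild type, HYDA2 by 7.92-fold (q = 0.000623 in the authors' deposited table).

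The strand of these genes was not used here, and whether reads near the ends of neighbouring genes were shared was not tested. The gene Cre09.g396694 inside the PAT2 span is listed at 0 in all groups. A gene that overlaps the end of PFL1 by 58 bp, Cre01.g044850, reached at most 0.249 FPKM.

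**Figure D5:**
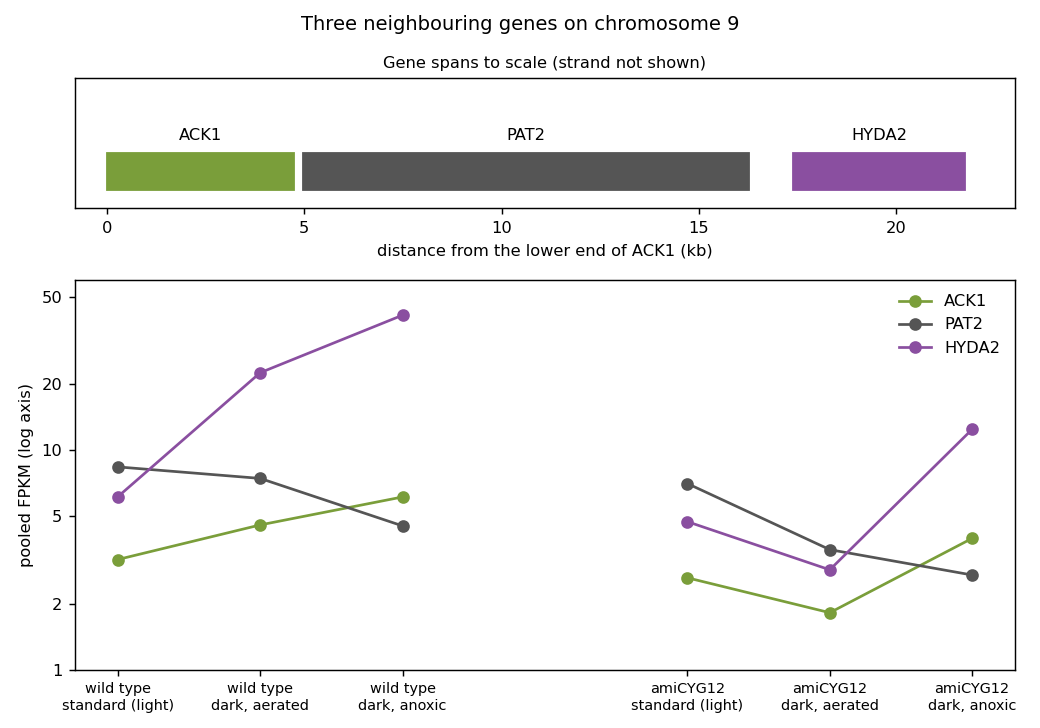
Spans of ACK1, PAT2 and HYDA2 drawn to scale (upper panel, distance in kb from the lower end of ACK1) and their pooled FPKM in the 6 groups (lower panel, log axis). HYDA2 climbs from 6.15 to 41.3 FPKM in the wild type, while PAT2 goes from 8.41 to 4.53 and ACK1 from 3.18 to 6.13.

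Other genes around pyruvate were counted from lists of pathway genes. Of 66 symbols outside the hydrogen branch and the markers, 43 loci were found and 40 reached 1 FPKM in a group. Among 13 genes for other uses of pyruvate, none rose and 5 fell in wild-type anoxia against standard, where 15.9 percent of all loci were called lower. In amiCYG12 none rose and 9 fell, against 15.7 percent called lower. The median log2 ratios were -0.75 and -1.26. The genes that fell include DLA2, an acetyltransferase gene of the pyruvate dehydrogenase complex that makes acetyl-CoA in air. It fell in the wild type (log2 -1.32, q = 0.00203) and in amiCYG12 (log2 -2.22, q = 0.000623) in the authors' deposited table. DLD2, a dihydrolipoamide dehydrogenase gene, fell likewise (log2 -1.41 and -1.98), each with q = 0.000623 in the authors' deposited table. The other listed DLA and DLD genes were not called in the wild type (DLA1 log2 -0.04, DLA3 -0.07, DLD1 -0.72). In amiCYG12 DLA1 (log2 -0.91) and DLD1 (log2 -2.00) fell, and DLA3 (log2 -0.27) was not called.

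Calls in this list were also made between aerated cultures. In the darkened, aerated wild type 5 of the 13 genes fell and none rose, against 6.75 percent of all loci called lower. From dark aerated to anoxia none was called in the wild type (median -0.13), against 14.8 percent of all loci. In amiCYG12 1 fell on darkening and 7 fell from dark aerated to anoxia, against 9.78 and 12.9 percent of all loci called lower. DLA2 stood at 213, 79.3 and 85.4 FPKM in the wild type and at 140, 89.1 and 29.9 in amiCYG12, listed as above. The difference of these responses between strains was not tested for the list.

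PDC3, pyruvate decarboxylase, opens a second route from pyruvate to acetaldehyde and ethanol. It stood at 11.5, 19.1 and 13.4 FPKM in the wild type and at 10.9, 7.27 and 6.33 in amiCYG12. Like ADH1, it was not called in either anoxic comparison of the wild type. The knockdown had less of it than the wild type dark aerated (log2 -1.39, q = 0.00244) and in anoxia (log2 -1.08, q = 0.0169) in the authors' deposited table. Dark aerated, PDC3 was the 1 gene called lower in amiCYG12 among the 13 for other uses of pyruvate. There 2 were called higher, PYC1 (Cre06.g258700) and AAT2 (Cre06.g284700), which share a chromosome by their locus names. Among all loci 10.8 percent were called lower there and 8.2 percent higher. In anoxia 7 of the 13 were called lower in amiCYG12 and 1 higher, against 9.13 and 5.73 percent of all loci. Of 2 other alcohol and aldehyde dehydrogenase genes counted, 1 was called higher and 1 lower in amiCYG12 in each incubation. Under standard conditions 5.49 percent of all loci were called higher and 5.04 percent lower. ADH5 stood at 3.45, 1.05 and 1.33 FPKM in the wild type and at 21.1, 11.6 and 3.92 in amiCYG12. FDH1 stood at 3.84, 3.78 and 2.76 FPKM in the wild type and at 1.02, 0.886 and 0.750 in amiCYG12.

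Acetate can also be turned back into acetyl-CoA by acetyl-CoA synthetases, and 2 of their genes were found. ACS3, the abundant one, stood at 607, 634 and 128 FPKM in the wild type and at 491, 433 and 58.6 in amiCYG12. From standard to anoxia it fell in the wild type (log2 -2.24) and in amiCYG12 (log2 -3.07), each with q = 0.000623 in the authors' deposited table. ACS1 rose 3.24-fold to 8.01 FPKM in the wild type and 3.37-fold to 6.47 FPKM in amiCYG12, each with q = 0.000623 in the authors' deposited table.

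Of 12 genes that supply pyruvate, 1 rose and 3 fell in wild-type anoxia against standard, and none rose and 2 fell in amiCYG12. Among all loci 11.5 percent were called higher and 15.9 percent lower in the wild type. For amiCYG12 those shares were 9.27 and 15.7 percent, and counts this small are not a result about the list. From dark aerated to anoxia 2 rose and 3 fell in the wild type, against 6.88 and 7.96 percent of all loci. In amiCYG12 none rose and 3 fell, against 12.9 and 12.9 percent. PPD1 rose there in the wild type, from 0.0859 to 4.46 FPKM (q = 0.000623 in the authors' deposited table). It stood at 0.0137 FPKM in amiCYG12 anoxia, and that strain difference was not called (q = 0.284). MME3, an NADP malic enzyme that releases pyruvate from malate, stood at 2.99, 10.4 and 8.53 FPKM in the wild type and at 2.58, 1.96 and 2.79 in amiCYG12. It rose in the darkened, aerated wild type (log2 1.81), and dark aerated amiCYG12 had less of it than the wild type (log2 -2.42), both with q = 0.000623 in the authors' deposited table. The strain calls in this list went both ways. In dark aerated amiCYG12 2 of the 12 genes were called higher and 2 lower, against 8.2 and 10.8 percent of all loci. Under standard conditions 3 were called higher and none lower, against 5.49 and 5.04 percent. Those 3 were PYK2 (Cre06.g280950), MME1 (Cre06.g268750) and MME6 (Cre06.g251400), which share a chromosome by their locus names. PYK2 was called higher in amiCYG12 in all 3 incubations (log2 0.94, 1.19 and 1.46, listed as above). Whether the strain calls of these genes go with their position was not tested. Of 11 genes listed for glycerol and succinate by-products, none rose in either strain from standard to anoxia, while 4 fell in the wild type and 8 in amiCYG12, against 15.9 and 15.7 percent of all loci called lower. Beside GPD1, GPD2 and GPD4 the 11 are MDH1 to MDH5, FUM1, PPC2 and PCK1, so the counts are not specific to by-products. From standard to anoxia in the wild type, GPD1 went from 10.6 to 9.96 FPKM, GPD4 from 11.9 to 13.1 and GPD2 from 0.826 to 0.0792. GPD3, a glycerol-3-phosphate dehydrogenase gene below 1 FPKM in every group, was not counted, although the authors' deposited table called it higher in anoxia in both strains. None of the 3 symbols listed for the enzyme that activates pyruvate-formate lyase was found, so its level is not given.

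Within the 5 genes of the hydrogen branch, which draws electrons through ferredoxin, all 5 rose from standard to anoxia in each strain, against 11.5 percent of all loci called higher in the wild type and 9.27 percent in amiCYG12. On darkening with air 4 of them rose in the wild type, against 4.28 percent of all loci. None was called in amiCYG12, where 13.9 percent of all loci were called either way. Dark aerated amiCYG12 had lower levels of 4 of them than the wild type, against 10.8 percent of all loci. Under standard conditions 2 were called higher in amiCYG12, against 5.49 percent of all loci, and in anoxia 2 were called lower, against 9.13 percent. The 2 higher were HYDEF (Cre06.g296750, 0.989 FPKM in the wild type and 1.94 in amiCYG12) and HYDG (Cre06.g296700, 8.07 and 16.7). By locus name they lie on the chromosome of PYK2, MME1 and MME6, and an effect of position was not tested. HYDA1 (19.2 and 11.3 FPKM) and HYDA2 (6.15 and 4.73) stood lower in amiCYG12 under standard conditions and were not called. The gene Cre02.g095137 is described in the table as a pyruvate-ferredoxin oxidoreductase, an enzyme that splits pyruvate and reduces ferredoxin. It carries no symbol and was chosen after its values were seen. It stood at 0.165, 2.46 and 21.5 FPKM in the wild type and at 0.136, 0.196 and 7.63 in amiCYG12. Its level in the darkened, aerated knockdown was 12.5-fold below that of the wild type, and in anoxia 2.82-fold below, each with q = 0.000623 in the authors' deposited table. In wild-type anoxia PFL1 was at 363 FPKM beside 21.5 for this gene.

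The genes with the most similar profile over the 6 groups were ranked among 1484 loci with a symbol and at least 10 FPKM in a group, by the root mean square difference of centred log2(FPKM + 1) values. SOX1 (0.204) and UPT1/EZY11 (0.242), described as a UDP-glucose protein transglucosylase, came closest to PFL1. CGL40 (0.0484) and AMA1 (0.103), an alpha-amylase, came closest to PAT2, and CGL40 (0.119) was also the nearest to ADH1. The beta-amylase AMB3 (0.0763) was nearest to ACK1, and the starch synthase SSS4 (0.0875) and starch branching enzyme SBE3 (0.0888) were nearest to PAT1. The rest of the 3 matches ranked per gene were CGLD9 (0.261) for PFL1, HSP70G (0.113) for PAT2 and DNJ8 (0.118) for PAT1. For ADH1 they were PDI5 (0.160) and AMA1 (0.183), and for ACK1 FAP260 (0.0883) and PTB2 (0.0966). PAT1 was matched on its more abundant transcript alone. The added 1 compresses the profiles of the low acetate genes, which makes their differences smaller than those of PFL1, and ACK2 varied too little for a match.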

How the data were processed

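The 12 libraries (2 per group) were grouped by strain and incubation from the labels. Per the file headers, the authors mapped reads with Bowtie, Tophat and SAMtools to genome version 5.5 (Phytozome release 11) and quantified them with Cufflinks and Cuffdiff. The submitters' processing notes name CASAVA 1.8.2, Bowtie2 2.0.5, TopHat2 2.0.6, SAMtools 1.2 and Cufflinks 2.1.1. The sources used here do not give strand use or the sharing of multiply mapping reads. The deposited table holds 1 FPKM per group. For 9 comparisons the authors deposited a log2 ratio, a fold ratio, a p-value with its test status, and a call with its q-value.

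Members were matched by symbol, and the most abundant transcript stood for each locus (at least 1 FPKM in a group). The log2 ratios reported were computed from the deposited FPKM without a pseudocount, a departure from a planned pseudocount of 1 because several members lie below 10 FPKM; no per-library test was possible. Standard errors were the log2 ratio over the normal quantile of the deposited p-value, and an upper bound at the smallest deposited p-value (5e-05). Intervals are 95%. The strain difference test, with the smaller of its 2 possible errors, was tested on simulated data. All 6 genes are described, listed genes are counted, and those called by the authors may be named. The members and lists were chosen with earlier results of these data known. Python 3.11.15, pandas 2.3.3, NumPy 2.4.6 and SciPy 1.17.1 were used.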

Additional observations from a re-analysis of the deposited data

How the results depend on the processing

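No paired analysis was possible because the table holds 1 pooled value per group, and for the same reason no library could be left out. The counts of the 6 genes called in the 9 comparisons stayed within 1.5 times those reported, with these exceptions. For amiCYG12 dark aerated against standard (2 reported), the count was 1 with adjustment within the comparison, 0 after scaling to a common median ratio, 1 with no minimum FPKM and 1 with a minimum of 10 FPKM. Counts with a changed minimum rest on p-values adjusted anew, because the deposited calls do not depend on a minimum. With no minimum, as with adjustment within the comparison, PAT2 was the gene that stayed called. A minimum of 10 FPKM removes PAT1, PAT2, ACK1 and ACK2 by construction. It left 1 call for wild-type anoxia against standard (4 reported), 1 for amiCYG12 anoxia against dark aerated (2 reported), 2 for amiCYG12 against wild type dark aerated (4 reported) and 0 for amiCYG12 against wild type in anoxia (1 reported). The counts of 0 for strain differences of responses held with the error from the responses alone, with that from the strain comparisons alone (added after seeing the data) and with a minimum of 10 FPKM. Of the 54 log2 ratios, pseudocounts of 0.1 and 1 and the rescaling moved none beyond its recovered error, a pseudocount of 10 moved 19, and summing transcripts moved 2, both of PAT1 (-0.48 to 0.28 for the wild type dark aerated against standard, -0.14 to -0.90 for amiCYG12 against wild type dark aerated). In simulated data with 50 changed loci for each size, the test of the strain difference of the dark response recovered 1 locus at a true log2 difference of 1 and 16 at 2, so differences of the size seen in these genes are mostly below what it can call. Applying these alternatives to the listed pathway genes was added after seeing the data, as was the use of no pseudocount. Of those 40 genes, 19 were called between the strains in anoxia (4 higher and 15 lower in amiCYG12), against 14.9 percent of all loci. The count was 12 with adjustment within the comparison alone and also 12 after rescaling. Under standard conditions 9 were called (6 higher and 3 lower), against 10.5 percent of all loci. That count was 5 with adjustment within the comparison alone and also 5 after rescaling. Dark aerated, 11 were called (6 higher and 5 lower), against 19 percent of all loci. With adjustment within the comparison alone 11 were called, and 10 after rescaling. These counts take no account of chromosome position.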
